A study of Mus musculus with 20 samples.

Results

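The comparison described here is that of liver in obese mice given benzbromarone (BBR) after knockdown of PPARγ with liver in obese mice given the same drug after a control vector. Its members were 10 of the 20 libraries, 5 mice labelled benzbromarone (Vec+BBR here) and 5 labelled PPAR knockdown + benzbromarone (shRNA+BBR). The labels do not name the control vector, which was taken from the study's methods. The animals were male Lepr db/db mice, in which the leptin receptor does not signal and obesity with diabetes follows. At 5 weeks of age all of them received AAV8, an adeno-associated virus that reaches hepatocytes, by the tail vein. Vec+BBR mice received a vector with a non-targeting shRNA, and shRNA+BBR mice received a vector that carried 4 hairpins against Pparg. Both groups were then gavaged with BBR at 25 mg per kg once daily for 4 weeks, and the remaining 10 mice (Vec and shRNA) received the same vectors and the drug's vehicle. The vector was given to the whole animal, the promoter that drives the hairpins is not stated in the sources used here, and the level of the vectors was not measured here. Bulk RNA was sequenced from whole liver, in which fewer cells of a type and less RNA per cell cannot be told apart.

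PPARγ is a nuclear receptor that forms a heterodimer with RXR and binds a short DNA motif repeated in the same direction with 1 base between the copies. It is best known from adipocytes, where it drives fat storage. In hepatocytes of lean animals its level is low, and in steatotic liver it is higher and is linked to genes of lipid droplets, fatty acid uptake and triglyceride storage. Benzbromarone is a uricosuric drug used for gout, and the question addressed was which of the transcripts of BBR-treated obese liver depend on PPARγ.

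The target sites of the 4 hairpins are shown because they define the manipulation. Each is the 21-base sense stretch as designed, written 5′ to 3′, and the capitals mark the 7 bases that pair with positions 2 to 8 (the seed) of the antisense strand.
shRNA1: gcatctccaccttATTATTCt
shRNA2: ggatgtctcacaaTGCCATCa
shRNA3: ggaaagacaacggACAAATCa
shRNA4: ggaagccctttggTGACTTTa
All 4 sites matched the coding sequence of Pparg exactly in GENCODE M21 (GRCm38, chromosome 6, plus strand). In the longest coding transcript, with 8 exons and 475 codons, the sites lay in exon 4 (chr6:115441512-115441532), across the junction of exons 5 and 6 (from 115451068 to 115463091), in exon 6 (chr6:115463265-115463285) and in exon 7 (chr6:115473195-115473215). The first site covered codons 81 to 87 and the fourth covered codons 355 to 362. The site of shRNA1 was present in 5 of 5 protein-coding transcripts of the gene, that of shRNA2 in 4, and those of shRNA3 and shRNA4 in 3 each. No site matched a transcript of another gene exactly. A stretch of at least 15 bases was shared with 2 genes that were tested, Mtfmt and Npc1, both for shRNA3, and neither passed the test in either direction.

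The 10 libraries held between 19578887 and 25024099 expected counts each and between 14397 and 15072 genes with a count. Over the genes tested, the first principal component of the 10 libraries held 30% of the variance and separated the groups, with Vec+BBR mice at -29.0 to -2.03 and shRNA+BBR mice at 9.59 to 35.5. Vec+BBR replicate 1 lay at -2.03, away from the other 4 mice of its group at -29.0 to -16.5. Mitochondrial genes took 9.96% to 13.8% of the counts in Vec+BBR and 10.2% to 16.2% in shRNA+BBR. None of 10 hepatocyte markers passed the test, and their summed level was 107800 to 131700 CPM in Vec+BBR and 116300 to 129600 CPM in shRNA+BBR. The p-values below measure the spread between mice, as each library came from a separate animal.

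The targeted transcript was lower in every knockdown mouse. Pparg levels, as counts scaled to a common library size (CPM), were 34.8, 29.8, 28.0, 28.1 and 38.3 CPM in Vec+BBR replicates 1 to 5 and 11.4, 9.99, 21.8, 18.9 and 7.19 CPM in shRNA+BBR replicates 1 to 5. The groups did not overlap, and shRNA+BBR replicates 3 and 4 kept the most Pparg RNA. The means were 31.8 ± 4.57 and 13.9 ± 6.22 CPM (SD, n = 5 each), a log2 fold change of -1.20 ± 0.26 (SE, adjusted p = 0.00843, edgeR with Benjamini-Hochberg adjustment over 12342 genes). A two-sided exact permutation test over all assignments of the 10 mice to groups of 5 gave p = 0.00794, the smallest value that this design allows. Per unit of length, in the authors' FPKM, the group means were 18 and 7.69. In vehicle, where no mouse is shared with this comparison, the same vector gave a log2 fold change of -2.12, and the difference between the knockdown effects with and without BBR was 0.92 (adjusted p = 0.208, edgeR).

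**Figure D1:**
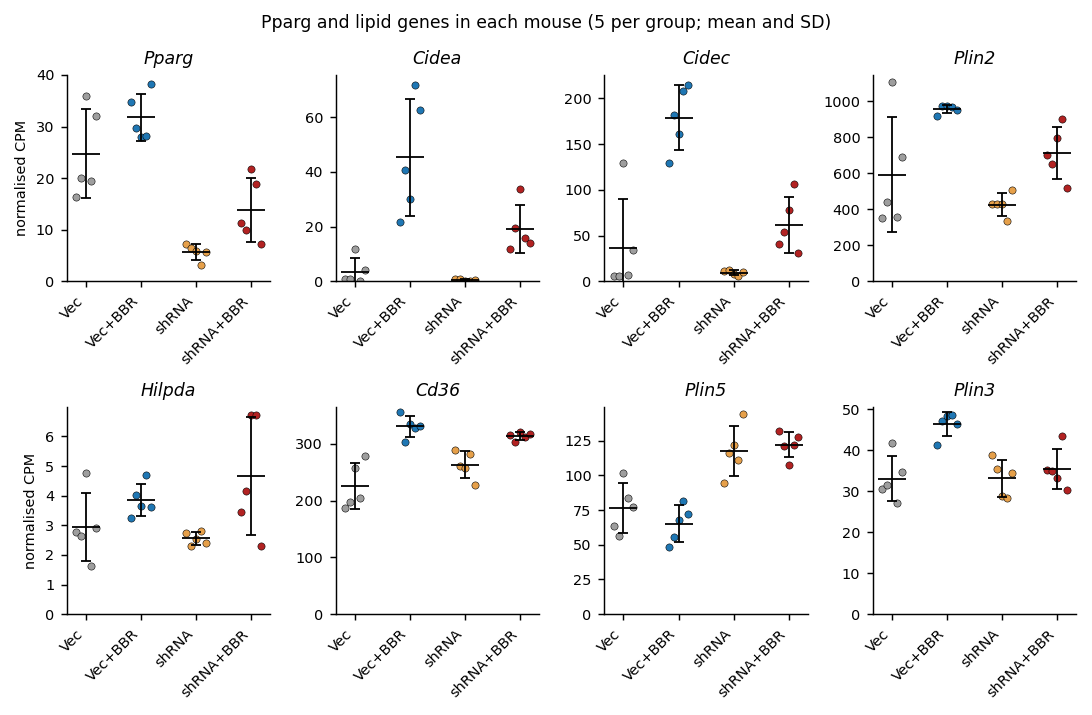
Normalised CPM (vertical axes, from 0) of Pparg and 7 lipid genes in each mouse of the 4 groups, with the mean and SD of 5 mice in black. Pparg falls from a mean of 31.8 CPM in Vec+BBR to 13.9 CPM in shRNA+BBR without overlap, whereas Plin5 rises from 65.2 to 122 CPM and Cd36 stays between 303 and 356 CPM in all 10 BBR-treated mice.

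Over all genes tested, 409 of 12342 (3.31%) rose and 595 (4.82%) fell with the knockdown under BBR at an adjusted p under 0.05, which is 8.13% in either direction. The fall was the more frequent direction with TMM scaling, at 40.7% higher among all calls, but not with upper-quartile scaling, which gave 552 higher and 486 lower (53.2% higher). Most changes were small, with a median log2 fold change of 0.57 among the genes that rose and -0.48 among those that fell. A change of at least 2-fold was seen for 96 genes that rose and 52 that fell. The 2 groups of 5 mice did not overlap for 248 of the genes that rose and 439 of those that fell, whereas without regard to the test 3.28% of all genes lay higher and 5.19% lay lower without overlap (8.48% in all). Leaving out Vec+BBR replicate 1 gave 553 higher and 576 lower, and leaving out shRNA+BBR replicate 2 gave 259 higher and 279 lower. A fit of the 10 BBR-treated libraries alone tested 12029 genes, of which 446 (3.71%) rose and 558 (4.64%) fell.

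**Figure D2:**
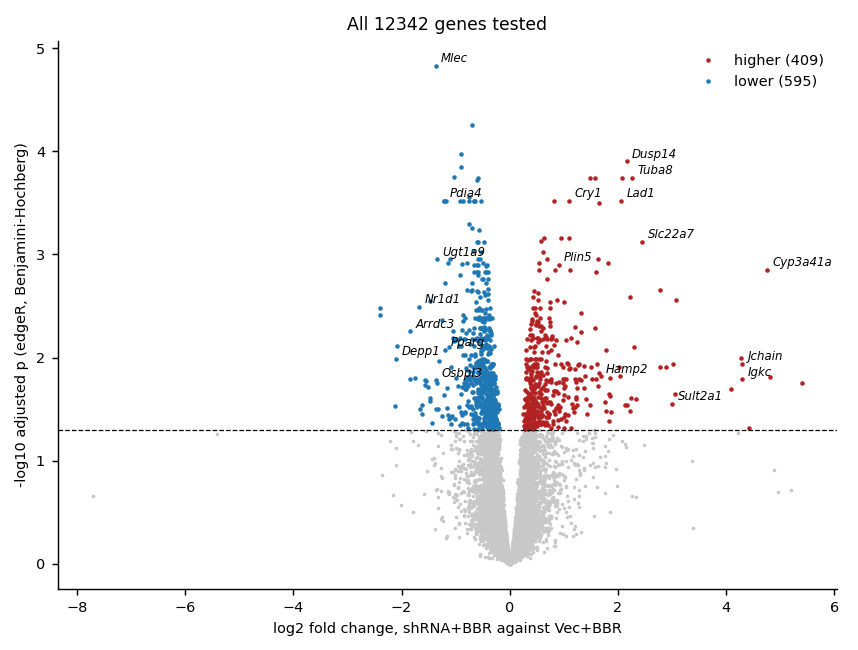
The log2 fold change of shRNA+BBR against Vec+BBR (horizontal axis) and the -log10 adjusted p of edgeR (vertical axis) for all genes tested. Red points are the 409 genes that were higher, blue points the 595 that were lower, grey points did not pass, and the dashed line is an adjusted p of 0.05. Mlec lies highest among the genes that fell, and Cyp3a41a lies far to the right.

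Among the genes that fell, Mlec had the smallest p-value. It encodes malectin, a lectin of the endoplasmic reticulum that binds immature glycoproteins. Mlec was at 222, 242, 247, 243 and 245 CPM in Vec+BBR and at 90.6, 74.5, 104, 107 and 87.2 CPM in shRNA+BBR, with no overlap. The log2 fold change was -1.37 ± 0.13 (adjusted p = 1.47e-05, edgeR), and in vehicle it was -0.96.
Further proteins of the endoplasmic reticulum were among the 15 largest decreases of genes without overlap and with a mean count of at least 50. Pdia4, a protein disulfide isomerase, fell from 110 to 134 CPM in the Vec+BBR mice to 40.0 to 79.8 CPM in the shRNA+BBR mice, by 1.22 on the log2 scale. Sdf2l1, a chaperone partner of the same compartment, fell by 1.25. Of 18 genes of the integrated stress and unfolded protein response, these 2 and the co-chaperone gene Dnajb9 (-0.42) fell and none rose. The shares over all genes tested were 4.82% lower and 3.31% higher, and the median of the list was -0.15. With only the BBR-treated libraries in the fit the same 3 genes fell and the list member Atf4 rose (0.33, adjusted p = 0.0154, edgeR). The shares of all genes in that fit were 4.64% lower and 3.71% higher. Dnajb9 lost its call in 5 of 18 alternative settings.

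The other large decreases came from varied functions. Depp1, a gene that FoxO factors induce, had the largest among genes without overlap and with a mean count of at least 50, at 58.6, 49.8, 53.5, 39.0 and 29.2 CPM in Vec+BBR and 23.1, 6.63, 12.6, 7.30 and 4.30 CPM in shRNA+BBR, without overlap. Its log2 fold change was -2.10 ± 0.47 (adjusted p = 0.0103, edgeR). Arrdc3, an arrestin-like protein of receptor traffic, fell by 1.85, from a mean of 62.9 to 17.5 CPM. The genes of the small heat shock protein Hspb1 (-1.57), the protease Ctse (-1.57), Fam83a (-1.52), the vesicle-priming protein Unc13b (-1.47), the sterol-binding protein Osbpl3 (-1.36) and the DNA replication factor Mcm10 (-1.21) all fell with no overlap between the groups. Mcm10 fell while no gene of the proliferation list fell. Ugt1a9, which conjugates drugs with glucuronic acid, was at 332 to 453 CPM in Vec+BBR and 121 to 169 CPM in shRNA+BBR, a log2 fold change of -1.34. The Ugt1a genes share their last exons, so the division of reads among them is uncertain. Pltp, the phospholipid transfer protein of plasma, fell by 1.26 (adjusted p = 0.0373, edgeR), from 128 to 152 CPM to 31.7 to 81.9 CPM, and lost its call in 9 of 18 alternative settings, where the adjusted p reached 0.0849.

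The number of calls among the lipid genes usually linked to hepatic PPARγ depended on the libraries included in the fit. With the vehicle libraries included, 1 of 16 lipid droplet genes tested rose and 1 fell. The shares over all genes tested were 3.31% higher and 4.82% lower. The median log2 fold change of the list was -0.20 against -0.0041 over all genes tested. Plin5, a droplet coat protein of oxidative tissues, was at 48.6, 55.8, 68.0, 81.3 and 72.5 CPM in Vec+BBR and at 132, 121, 108, 122 and 128 CPM in shRNA+BBR. It rose by 0.90 ± 0.15 on the log2 scale without overlap (adjusted p = 0.00126, edgeR). Plin3, a ubiquitous droplet protein, fell by 0.39 with overlapping groups and lost its call in 10 of 18 alternative settings.

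Cidec, which enlarges lipid droplets, did not overlap between the groups. It was at 129, 182, 161, 208 and 215 CPM in Vec+BBR and at 40.9, 53.7, 78.0, 106 and 30.7 CPM in shRNA+BBR. Its log2 fold change of -1.53 ± 0.62 did not pass in the 4-group fit (adjusted p = 0.127, edgeR), in which the spread is shared with vehicle mice whose Cidec ran from 5.59 to 130 CPM in Vec. With only the 10 BBR-treated libraries in the fit it was -1.52 and passed (adjusted p = 0.00734, edgeR).
The related Cidea followed the same course. It was at 21.6, 40.8, 29.97, 72.0 and 62.7 CPM in Vec+BBR and at 11.7, 19.6, 33.8, 15.8 and 14.1 CPM in shRNA+BBR, with overlap of single mice. The value of -1.25 ± 0.53 gave an adjusted p of 0.146 in the 4-group fit and 0.0408 with the 10 libraries alone (edgeR). In that smaller fit 5 of 16 lipid droplet genes fell, namely Cidea, Cidec, Plin3, Fitm1 and Fitm2, against 4.64% of all genes. Plin5 rose there as well.
The remaining genes measured by the study did not pass in any alternative setting. The study itself reported that the knockdown lessened the BBR-induced rise of various PPARγ target genes. Its qPCR of liver included Plin2 and Hilpda. Here Plin2, the main droplet coat protein of hepatocytes, had a mean of 956 ± 23.2 CPM in Vec+BBR and 715 ± 144 CPM in shRNA+BBR. The log2 fold change was -0.42 in the 4-group fit (adjusted p = 0.278) and -0.40 with the 10 libraries alone (adjusted p = 0.0642, edgeR). The lowest Vec+BBR mouse (917 CPM) lay above the highest shRNA+BBR mouse (901 CPM). Hilpda, an inhibitor of the lipase ATGL, was at 3.85 ± 0.54 and 4.66 ± 1.99 CPM (0.28, adjusted p = 0.533). Cd36, a fatty acid transporter, was at 330 ± 18.8 and 314 ± 6.92 CPM (-0.08, adjusted p = 0.683).

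No gene passed, in the 4-group fit, among 17 genes of fatty acid uptake and activation, 15 of triglyceride synthesis, 18 of fatty acid synthesis, 23 genes that the study listed as targets of PPARγ and not of PPARα, or 23 that it listed for both receptors. At an adjusted p under 0.05 in the fit of the 10 libraries alone, 1, 1, 0, 2 and 2 genes of these lists fell and none rose. The share of all genes that fell in that fit was 4.64%. The gene of triglyceride synthesis was Mogat1 (-0.64, adjusted p = 0.0069, edgeR), which the PPARγ list also holds. In the PPARγ list, which holds Cidec and also genes such as Plin2 and Hilpda that respond to PPARα as well, 19 of 23 log2 fold changes were negative, with a median of -0.29. In vehicle the median of the same list was -0.36, and 2 of its genes fell.

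**Figure D3:**
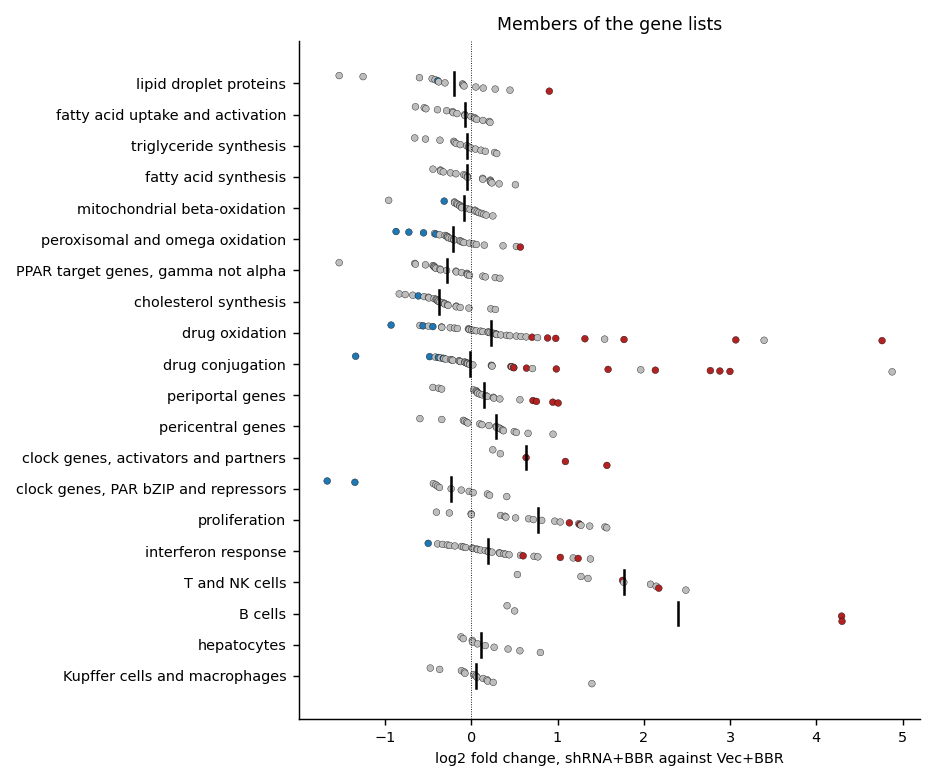
Log2 fold change of shRNA+BBR against Vec+BBR (horizontal axis) for each tested member of 20 gene lists, with list medians as black bars. Red and blue points passed the test upwards and downwards, grey points did not. The lists of fatty acid uptake, triglyceride synthesis and PPARγ targets hold only grey points, and drug oxidation and conjugation hold the points farthest to the right.

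In the list of peroxisomal and omega oxidation, 4 of 25 genes fell and 1 rose, against 4.82% lower and 3.31% higher among all genes tested. Vnn1, a pantetheinase responsive to PPARα, was at 183, 144, 136, 147 and 186 CPM in Vec+BBR and at 95.7, 84.4, 95.8, 78.7 and 80.1 CPM in shRNA+BBR, a log2 fold change of -0.87 ± 0.19 without overlap (adjusted p = 0.0094, edgeR). Crot, which moves shortened acyl groups out of peroxisomes, fell by 0.41. The peroxisomal transporter Abcd2 (-0.72) and Cyp4a32 (-0.55) fell, and Cyp4a31 rose by 0.57. These Cyp4a genes are close paralogs, and the call of Cyp4a31 was lost in 11 of 18 alternative settings. In mitochondria, 1 of 20 β-oxidation genes fell, Acadm (-0.31), which was lost in 4 of 18 settings. With the 10 libraries alone Acadm did not pass (adjusted p = 0.0687, edgeR). In that fit the only β-oxidation gene that fell was Cpt1b (-0.945, adjusted p = 0.0432, edgeR), which the study listed as a target of both receptors. Among 18 triglyceride lipases and related esterases only Ces3a fell (-0.85), and this call was lost in 11 of 18 settings.

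Transport of sterols and bile acids moved in both directions. Abcc3, an exporter of conjugated bile acids to blood, had levels of 324, 409, 382, 376 and 398 CPM in Vec+BBR and 242, 161, 185, 210 and 226 CPM in shRNA+BBR, a log2 fold change of -0.88 ± 0.15 (adjusted p = 0.00124, edgeR). Abcg8, a subunit of the canalicular cholesterol exporter, fell by 0.80 from 67.3 to 89.1 CPM to 37.7 to 54.7 CPM. The uptake carrier Slco1a4 rose, from 13.7 to 31.1 CPM to 51.9 to 91.7 CPM (log2 1.63). The other 17 of 20 bile acid genes did not pass, and the shares over all genes tested were 3.31% higher and 4.82% lower. Tm6sf2, a protein of VLDL lipidation, rose by 0.57 in the lipoprotein list, in which Pltp was the only gene that fell.

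Drug-metabolising enzymes were among the genes with large increases. Of 42 drug oxidation genes 7 rose and 3 fell, and of 39 conjugation genes 9 rose and 4 fell, against 3.31% higher and 4.82% lower among all genes tested. With the 10 libraries alone 5 of 40 oxidation genes rose and 5 fell, and 9 of 37 conjugation genes rose and 3 fell. The shares of all genes in that fit were 3.71% higher and 4.64% lower. Cyp3a44, Cyp3a41b, Sult2a3 and Sult5a1 passed the filter on low counts only with the vehicle libraries included. Cyp3a41a, a cytochrome P450 with female-biased expression in mouse liver, was at 5.60, 0.448, 2.09, 2.68 and 6.54 CPM in Vec+BBR and at 190, 73.7, 22.3, 34.5 and 152 CPM in shRNA+BBR. Its log2 fold change was 4.76 ± 0.80 (adjusted p = 0.00142, edgeR), the groups did not overlap, and shRNA+BBR replicates 1 and 5 were the highest. Its levels in vehicle were 20.9 to 659 CPM in Vec, so that the Vec+BBR mice lay below all Vec mice. Cyp3a44 rose by 3.07 but stayed under 1 CPM, and it could not be tested with the 10 libraries alone. Cyp2c54 and Cyp2c50, which oxidise fatty acids and drugs, rose by 1.77 and 1.32 with an overlap of single mice. The aldehyde oxidase Aox3 fell from 13.8 to 14.8 CPM to 5.18 to 9.71 CPM (log2 -0.93), and Cyp2b9 fell by 0.56.

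The sulfotransferases of the Sult2a family, which sulfate bile acids and steroids, rose together. Sult2a2 was at 11.8, 2.91, 13.1, 0.982 and 1.93 CPM in Vec+BBR and at 70.1, 36.9, 28.6, 42.1 and 49.3 CPM in shRNA+BBR, without overlap. The log2 fold change was 2.88 ± 0.67 (adjusted p = 0.0124, edgeR). Sult2a1 rose by 3.0, Sult2a5 by 2.77 and Sult2a8 by 1.59, and Sult1d1 (0.64) and the glutathione transferase Gsta2 (0.99) also rose. The call of Sult2a1 was lost in 4 of 18 alternative settings and that of Sult1d1 in 5. Some genes of the Sult2a and Cyp3a families are nearly identical in sequence. The expected counts divided shared reads between such genes, so that their single values are uncertain. Ugt2b38 fell by 0.48, a call lost in 7 of 18 settings.
Of 23 female-biased genes 6 rose, all of them among those above except the plasma glycoprotein gene A1bg (2.33), and 2 fell, Cyp2b9 and Abcd2. The shares over all genes tested were 3.31% higher and 4.82% lower. With the 10 libraries alone 5 of 20 rose and 3 fell, among them Cyp2a4, against 3.71% and 4.64% of all genes. Cyp3a44, Cyp3a41b and Sult2a3 passed the filter on low counts only with the vehicle libraries included and were not tested in that fit. Of 21 male-biased genes 1 fell, Ugt2b38, and none rose, whereas with the 10 libraries alone C8b rose and none fell.

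Further genes among the 15 largest increases without overlap, or called in a list, had varied functions. Slc22a7, an organic anion transporter, was at 2.61, 1.12, 1.62, 1.52 and 1.27 CPM in Vec+BBR and at 9.69, 11.1, 6.63, 6.71 and 10.6 CPM in shRNA+BBR, a log2 fold change of 2.45 ± 0.38 (adjusted p = 0.000755, edgeR). Igfbp2, which binds insulin-like growth factors, rose from 3.48 to 9.23 CPM to 10.5 to 43.9 CPM (log2 2.02). Hamp2, a relative of the iron hormone hepcidin, rose from 26.2 to 207 CPM to 259 to 403 CPM (log2 1.68). The phosphate transporter Slc34a2 (2.22), the α-tubulin Tuba8 (2.27), the phosphatase Dusp14 (2.16), the anchoring filament protein Lad1 (2.06) and the sarcomeric protein Myom3 (1.81) rose without overlap. Mean levels of these genes in shRNA+BBR stayed between 4.90 and 17.4 CPM. Smoc2, a secreted matrix-associated protein, was at 2.65 to 5.99 CPM in Vec+BBR and at 24.8, 16.8, 6.39, 17.8 and 21.2 CPM in shRNA+BBR, and rose by 2.08.

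Enzymes of nitrogen and carbohydrate metabolism rose in part. Of 20 periportal genes, which mark hepatocytes near the portal vein, 4 rose and none fell, against 3.31% and 4.82% of all genes tested, and the median was 0.15. None of 19 pericentral genes passed, and their median was higher, at 0.29. With the 10 libraries alone 4 of 20 periportal genes and 1 of 19 pericentral genes, Oat, rose, against 3.71% of all genes. The difference between the lists was not tested. Ass1 and Asl, consecutive enzymes of the urea cycle, rose by 0.71 and 0.76. Asl was at 408, 403, 519, 446 and 541 CPM in Vec+BBR and at 790, 903, 701, 586 and 933 CPM in shRNA+BBR, with no overlap. Sds, which deaminates serine, rose by 1.01, and Etnppl, which degrades phosphoethanolamine, rose by 0.94. The call of Ass1 was lost in 5 of 18 alternative settings and that of Sds in 4. In the list of glucose metabolism, the fructokinase Khk (0.59) and the glycogen-targeting subunit Ppp1r3c (0.89) rose and the hexokinase Hk2 fell, from 4.32 to 7.41 CPM to 2.05 to 3.79 CPM (log2 -1.09). Gclc, which limits glutathione synthesis, fell by 0.66 and was the only one of 11 NRF2 genes to pass. Among 22 acute phase genes Hp, haptoglobin, fell by 0.64 and the metallothionein Mt1 rose by 0.99, a call lost in 5 of 18 settings. Col4a1, a basement membrane collagen, fell from 56.1 to 79.0 CPM to 38.7 to 50.2 CPM and was the only one of 14 stellate cell and matrix genes to pass. The shares over all genes tested, 3.31% higher and 4.82% lower, also stand beside the counts of these lists.

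Genes of the circadian clock changed in opposite directions. The clock is a feedback loop in which Arntl, with its partner Clock, drives Nr1d1, Dbp and the Per and Cry genes, and Nr1d1 in turn represses Arntl. Arntl was at 1.07, 2.55, 3.33, 3.17 and 2.78 CPM in Vec+BBR and at 10.2, 5.01, 7.15, 6.34 and 9.68 CPM in shRNA+BBR, a log2 fold change of 1.57 ± 0.32 (adjusted p = 0.00519, edgeR). Nr1d1 was at 21.9, 17.3, 17.3, 20.4 and 19.4 CPM in Vec+BBR and at 6.35, 7.21, 6.16, 3.97 and 6.5 CPM in shRNA+BBR, a log2 fold change of -1.67 ± 0.31 (adjusted p = 0.00322). Neither gene overlapped between the groups.
Cry1, a repressor of the loop that peaks late, rose by 1.09 ± 0.15, from 8.46 to 13 CPM to 16.4 to 26.3 CPM. Nfil3, which opposes Dbp at shared sites, rose by 0.64 and lost its call in 7 of 18 alternative settings. Dbp, an output factor of the clock, was at 85.9, 41.9, 32.6, 36.6 and 53.8 CPM in Vec+BBR and at 17, 29.5, 17.6, 17.6 and 16.6 CPM in shRNA+BBR and fell by 1.35. In all, 3 of 5 tested genes of the first list (activators and genes that peak with them) rose, against 3.31% of all genes tested. Of the second list (repressors and factors such as Dbp) 2 of 13 fell, against 4.82%. With the 10 libraries alone Nfil3 did not pass and 2 of 5 rose, against 3.71% of all genes. Per2 and Per3 also fell in that fit, which gave 4 of 13 lower, against 4.64%. In vehicle Arntl rose by 1.10 and Nr1d1 fell by 1.07 with the same vector. The time of day at which each mouse was killed is not given in the sources used here, so a difference in collection time between groups was not tested.

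**Figure D4:**
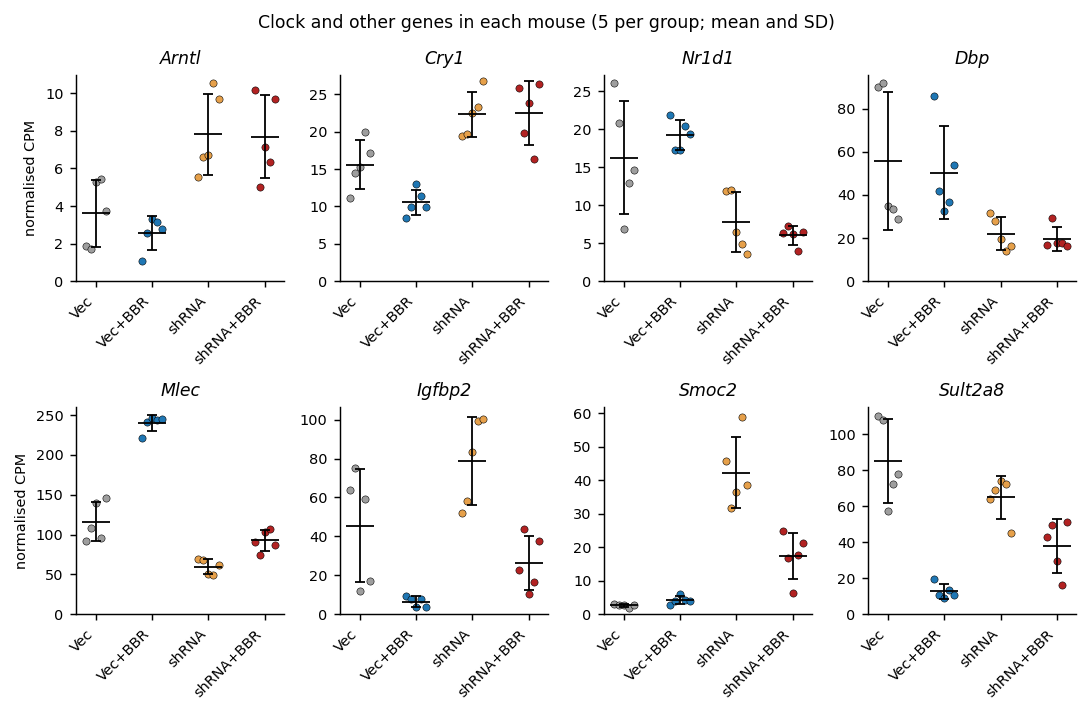
Normalised CPM (vertical axes, from 0) of 4 clock genes and of Mlec, Igfbp2, Smoc2 and Sult2a8 in each mouse of the 4 groups, with the mean and SD of 5 mice in black. Arntl and Cry1 lie higher, and Nr1d1 and Dbp lower, in both knockdown groups than in the matching vector group. Smoc2 has a mean of 4.13 CPM in Vec+BBR and 17.4 CPM in shRNA+BBR.

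Of 12 T and NK cell markers 9 passed the filter on low counts, which was applied over all 4 groups. Their log2 fold changes were all positive with a median of 1.77. Of the 9, Trbc2 (1.75) and the granule protein Nkg7 (2.17) rose, against 3.31% of all genes tested. With the 10 libraries alone only 3 markers passed the filter, and Nkg7 and Gzma rose. Trbc2 and the others passed only with the vehicle libraries included, so the shared sign of the 9 is not evidence within this comparison. The summed level of the 12 markers was 2.20 to 4.06 CPM in Vec+BBR and 4.13 to 13.3 CPM in shRNA+BBR, so these transcripts were rare in both groups. The direction was the opposite in vehicle, where the knockdown gave this list a median of -1.26, with 2 genes lower and none higher. Vec+BBR was itself low against Vec, with a list median of -2.13 and 5 genes lower. Ccl5, a chemokine of T cells, was at 0.706 to 1.28 CPM in Vec+BBR and at 2.38, 5.30, 7.34, 4.20 and 1.37 CPM in shRNA+BBR, and rose by 2.24. The calls of Trbc2 and Nkg7 were each lost in 7 alternative settings and that of Ccl5 in 6. Of 4 B cell genes, Igkc and Jchain, which encode an immunoglobulin light chain and the chain that joins IgA and IgM, had log2 fold changes of 4.29 and 4.30. Igkc was at 2.74, 1.84, 5.14, 0.223 and 1.36 CPM in Vec+BBR and at 3.25, 5.80, 44.4, 165 and 2.59 CPM in shRNA+BBR. The increase rested on shRNA+BBR replicates 3 and 4, the groups overlapped, and without shRNA+BBR replicate 4 neither gene passed, at log2 fold changes of 2.63 for Igkc (adjusted p = 0.0738, edgeR) and 2.13 for Jchain (adjusted p = 0.0655). Neither passed with limma-voom.
Of 31 interferon response genes 3 rose and 1 fell, against 3.31% and 4.82% of all genes tested, and 27 did not pass. Irf7, a factor that drives interferon genes, was at 25.5, 23.9, 17.6, 15.3 and 23.7 CPM in Vec+BBR and at 53.5, 54.0, 35.3, 30.6 and 43.5 CPM in shRNA+BBR (log2 1.03, adjusted p = 0.00673, edgeR). Gbp3 rose by 1.24 and Bst2 by 0.60, and the RNA sensor gene Ddx58 fell by 0.50. The call of Bst2 was lost in 6 of 18 settings and that of Gbp3 in 2. None of 13 Kupffer cell and macrophage markers, 10 markers of recruited macrophages or 13 endothelial markers passed. The part of lymphocyte content in the interferon genes was not tested.

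In the proliferation list 17 of 20 log2 fold changes were positive with a median of 0.77, and 2 genes rose, against 3.31% of all genes tested. With the 10 libraries alone 5 of 19 rose, namely Ccna2, Ccnb2, Cdk1, Tk1 and Cdkn1a, against 3.71% of all genes. Cdk1, the kinase that starts mitosis, was at 2.78, 2.87, 2.57, 2.1 and 2.17 CPM in Vec+BBR and at 3.97, 4.93, 8.76, 8.26 and 3.91 CPM in shRNA+BBR, a log2 fold change of 1.26 ± 0.29 without overlap (adjusted p = 0.0118, edgeR). Ube2c, which tags mitotic proteins for destruction, rose by 1.14, and its call was lost in 13 of 18 alternative settings. The highest Cdk1 values were those of shRNA+BBR replicates 3 and 4, which also had the highest Igkc and the most Pparg RNA of their group.

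The knockdown was also made in vehicle-treated mice, which share no animal with the comparison above, so its effect with and without BBR can be set side by side. In vehicle 652 genes (5.28%) were higher and 976 (7.91%) lower in shRNA than in Vec. Of the 595 genes that fell under BBR, 256 also fell in vehicle (43.0% of the 595 and 26.2% of the 976) and 2 rose. Of the 409 that rose under BBR, 107 also rose in vehicle (26.2% of the 409 and 16.4% of the 652) and 6 fell. The sign of the log2 fold change was the same in vehicle for 86.7% of the genes that fell and 80.7% of those that rose, against 58.2% of all genes tested.

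The difference between the knockdown effects passed the test for 18 of 12342 genes (0.146%), 9 in each direction, and 2281 genes had an unadjusted p under 0.05 (edgeR). Of these 18 genes, 8 also passed in the comparison under BBR. Pkdcc, a secreted tyrosine kinase, had the smallest p-value. It was at 11.3, 9.81, 9.56, 8.61 and 9.32 CPM in Vec+BBR and at 12.8, 14, 15.9, 13.1 and 15.7 CPM in shRNA+BBR, a log2 fold change of 0.56, whereas in vehicle it was -0.59 (difference 1.14, adjusted p = 0.00284, edgeR).
Cdk1 and Tk1, the thymidine kinase of dividing cells, had positive values under BBR (1.26 and 0.51) and negative values in vehicle (-1.05 and -0.97), with differences of 2.31 and 1.48. The N-acetyltransferase gene Nat8 (difference 1.59), the interferon-induced Ifitm2 (0.70), the transcription factor gene Tbx3 (0.86) and Sult2a8 (1.98) differed in the same direction. Treh, trehalase (-1.36), the Golgi protein Golph3l (-0.84), the anchoring protein Akap7 (-1.12) and Krcc1 (-0.57) differed in the opposite one, and of these only Akap7 fell under BBR. Smoc2 rose in both settings, by 3.99 in vehicle and by 2.08 under BBR, and the difference was -1.92 (adjusted p = 0.0473, edgeR). Over 27 alternative settings the differences of Pkdcc, Tk1, Treh, Golph3l and Akap7 passed in all, whereas that of Smoc2 was lost in 16, Sult2a8 in 11, Krcc1 in 8, Tbx3 in 7, Cdk1 in 6, Ifitm2 in 5 and Nat8 in 1. The number of such genes depended strongly on the tool and on single mice: DESeq2 called 330, and edgeR called 122 without Vec replicate 4 and 97 without Vec+BBR replicate 1.

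**Figure D5:**
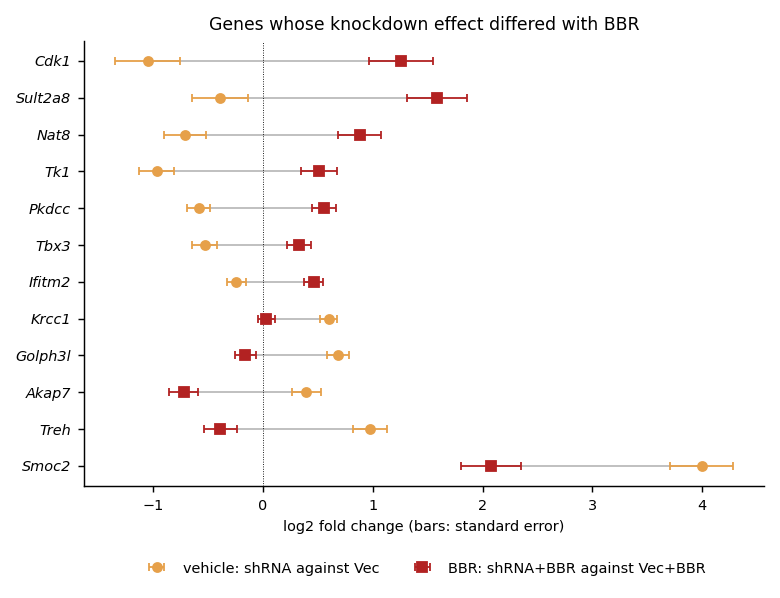
Log2 fold change (horizontal axis) of the knockdown in vehicle (orange circles, shRNA against Vec) and under BBR (red squares, shRNA+BBR against Vec+BBR) for the named genes whose effects differed, with bars of 1 standard error and 5 mice per group. Cdk1 moves from -1.05 in vehicle to 1.26 under BBR, and Smoc2 from 3.99 to 2.08.

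Promoters were searched for the direct repeat that PPAR and RXR bind, written as 2 copies of AGGTCA with any 1 base between them, on both strands in the window from 250 bases before to 50 bases after each annotated start (RefSeq, GRCm38.p6). A promoter was listed for 9789 of the symbols tested. The motif was found for 4 of these genes (0.0409%), for 0 of 469 genes that fell and for 1 of 316 that rose. The looser form with 2 copies of AGGNCA, where N is any base, includes the first and was found for 35 genes (0.358%), for 1 that fell (0.213%, Elovl1, a fatty acid elongase gene) and for 1 that rose (0.316%, Bco1). The gene with the exact motif was Bco1, the enzyme that cleaves β-carotene to retinal, whose promoter is shown because it holds the receptor's motif and its transcript rose. The window lies at chr8:117095615-117095914 on the plus strand, and the capitals mark the motif, found on the opposite strand 56 bases before the start.
Bco1: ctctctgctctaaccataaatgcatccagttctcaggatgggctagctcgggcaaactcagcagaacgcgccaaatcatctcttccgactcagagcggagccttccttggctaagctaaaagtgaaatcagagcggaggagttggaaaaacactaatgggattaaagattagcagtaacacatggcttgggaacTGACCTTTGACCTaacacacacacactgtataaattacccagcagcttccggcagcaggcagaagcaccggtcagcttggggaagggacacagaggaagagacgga
Bco1 was at 1.75, 3.001, 2.90, 2.54 and 2.31 CPM in Vec+BBR and at 4.22, 4.48, 2.70, 4.84 and 4.89 CPM in shRNA+BBR, and it rose by 0.76 under BBR (adjusted p = 0.0172, edgeR) and by 1.39 in vehicle. The groups overlapped, as shRNA+BBR replicate 3 lay within the range of Vec+BBR. Bco1 was singled out by the motif among the called genes. A match is a description of the letters, and binding of PPARγ was not measured here.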

How the data were processed

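Liver RNA of 20 mice was sequenced as 1 library per mouse. For each gene the authors deposited an expected count, in which reads that match several genes are divided between them, and an FPKM value, which they scaled for length and library size. The submitters' processing notes name the mm10 genome, whereas the aligner, the counting program and strandedness are not given in the sources used here. Groups were taken from the labels, which give the drug and the knockdown, and the control vector was taken from the study's methods. Expected counts were rounded and genes were filtered by filterByExpr (minimum count 10, minimum total 15), which kept 12342 genes. TMM factors lay between 0.873 and 1.14. A mean for each of the 4 groups was fitted with the quasi-likelihood method of edgeR 4.0.16 (R 4.3.3), and p-values were adjusted by Benjamini-Hochberg at a limit of 0.05. The contrasts were shRNA+BBR minus Vec+BBR, shRNA minus Vec, and their difference. The FPKM values were printed for Pparg and not tested. The floor was 3 counts, 0.120 to 0.153 CPM in the 10 libraries.

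Named genes were Pparg, 5 genes that the study measured by qPCR, the 15 largest increases and 15 largest decreases among called genes without overlap and with a mean count of at least 50, up to 6 called members per list, and up to 10 genes by the p-value of the difference. Bco1 and Elovl1 were chosen for their promoter motif, and a few list members were named after their values were seen. Some genes that the rule selects are not reported here. The comparison and the lists were chosen with earlier results of these data known. Alternatives were DESeq2 1.42.0, limma-voom (limma 3.58.1), other scalings and filters, a fit of 10 libraries, a replicate block and leaving out each mouse. The code was tested on simulated data.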

Additional observations from a re-analysis of the deposited data

Results flagged for a closer look

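For each named gene the highest and the lowest of the 5 mice of a group were compared with the rest, and in 13 of 188 sets (6.91%) 1 mouse lay far from the others. Chance alone gives about 1 in 20. Of the 13, 6 were Vec+BBR replicate 1, which also lay apart on the first principal component. Its Plin3 (41.3 CPM, others from 46.6) and Mlec (222 CPM, others from 242) were low. Its Cyp3a44 (0.171 CPM), Nkg7 (0.513 CPM), Nat8 (16.3 CPM) and Ifitm2 (102 CPM) were high. In Vec+BBR replicate 5, Cyp4a31 was low at 12.4 CPM and Sds was high at 265 CPM, and in replicate 3 Tbx3 was low at 8.90 CPM. In shRNA+BBR, Igkc (165 CPM) and Jchain (45.3 CPM) were high in replicate 4, Hspb1 (13 CPM) in replicate 3 and Dbp (29.5 CPM) in replicate 2.

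The knockdown effect differed between BBR and vehicle, by the interaction term of edgeR, for 12 named genes. The difference of log2 fold changes, BBR minus vehicle, was 2.31 for Cdk1, 1.98 for Sult2a8, 1.59 for Nat8, 1.48 for Tk1, 1.14 for Pkdcc, 0.86 for Tbx3 and 0.70 for Ifitm2. It was -0.57 for Krcc1, -0.84 for Golph3l, -1.12 for Akap7, -1.36 for Treh and -1.92 for Smoc2.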

How the results depend on the processing

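The knockdown of Pparg passed in every alternative, with log2 fold changes from -1.41 to -1.04 when 1 mouse was left out. Counts of called genes moved more. DESeq2 gave 637 higher genes and 330 genes whose effect differed with BBR, for which upper-quartile scaling gave 35 and limma-voom 11. Leaving out 1 mouse gave 242 to 553 higher genes, 279 to 625 lower genes and 5 to 122 genes whose effect differed. The count of higher genes fell most without Vec+BBR replicate 4 (242), replicate 2 (248), replicate 3 (258) and replicate 5 (261) and shRNA+BBR replicate 2 (259). The number of lower genes moved by over 1.5 times without Vec+BBR replicate 2 (362), replicate 4 (392) and replicate 5 (381) and shRNA+BBR replicate 2 (279). Of 93 named genes besides Pparg, 83 passed, 49 of these passed in every alternative, 7 lost their call in 9 or more, and none changed sign. Same-numbered mice did not deviate together (correlations of -0.29 to 0.0761), and a fit with the replicate number as a block gave 387 higher and 553 lower genes, 21 genes whose effect differed, and -1.23 for Pparg. The causes were not tested. Low counts limit Cyp3a44 and the lymphocyte markers.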

Other observations

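The 4 hairpins have seeds that can also pair with other transcripts, so the 7-base seed matches were counted in annotated 3′ untranslated regions. A match to any of the 4 seeds was present in 36.2% of 12257 tested genes with such a region, in 42.4% of 594 that fell and in 29.0% of 403 that rose. The seed of shRNA2 had a match in 11.8%, 17.8% and 7.2% of these genes. The regions also differed in length, with medians of 1168, 1514 and 790 bases. Per kilobase, shRNA2 matches numbered 0.0813 in all genes tested, 0.106 in those that fell and 0.0612 in those that rose. In the same order the values were 0.0568, 0.0519 and 0.0779 for shRNA1, 0.0566, 0.0563 and 0.0631 for shRNA3, and 0.154, 0.146 and 0.154 for shRNA4. The median log2 fold change was -0.0442 for genes with the shRNA2 match and 0.000871 for the others under BBR, and -0.0105 and -0.00828 in vehicle. For shRNA1 these medians were 0.00539 and -0.0051 under BBR, and 0.0373 and -0.0135 in vehicle. For shRNA3 they were -0.0189 and -0.00319 under BBR, and 0.0293 and -0.0118 in vehicle. For shRNA4 they were -0.0292 and 0.00129 under BBR, and 0.0326 and -0.0209 in vehicle. The part of seed pairing in the calls was not tested.

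The 13 mitochondrially encoded transcripts all had positive log2 fold changes, with a median of 0.24, and none passed. All 6 erythroid markers tested had negative values, with a median of -0.58, and none passed.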
